A study of Mus musculus with 3 samples.

Results

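The 8 genes described here encode the chemokines XCL1, CCL17 and CCL22, the chemokine receptors XCR1, CCR4 and CCR7, the growth factor FLT3 ligand and its receptor FLT3. They were chosen by name: Xcl1, Ccl17, Ccl22, Xcr1, Ccr4, Ccr7, Flt3l and Flt3 each matched 1 of the 28692 genes in the deposited matrices. The study injected cells of the mouse mammary tumour line 2208L into the mammary gland, harvested the tumours after 4 weeks at a diameter of 0.7 to 1 cm, and sorted viable CD45+ DAPI- cells, which are living blood-derived cells, for 10x Genomics single-cell RNA sequencing. The 3 libraries carry the same labels apart from their names and form 1 group with no treated or control arm, so every comparison below is between classes of cells within the libraries. The labels used here name no mouse strain, age or sex, and nothing in them says that the libraries came from separate animals, so the p-values measure only the spread between these 3 libraries, which may be technical. The cell type field reads tumour, which the CD45 gate goes against, and the chemistry is given as 5′ in one place and 3′ in another.

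XCL1 is secreted mainly by NK cells and activated CD8 T cells and binds XCR1, a receptor that marks the conventional dendritic cells specialised in cross-presenting antigen. CCL17 and CCL22 are made by dendritic cells and some macrophages and share the receptor CCR4, which is carried by regulatory and skin-homing T cells, while CCR7 guides mature dendritic cells and naive T cells towards lymph nodes. FLT3 ligand acts through the receptor tyrosine kinase FLT3 and is the growth factor on which dendritic cells and their precursors depend.

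Ccl22 and Ccl17 lie on the same strand of mouse chromosome 8 (GRCm38, GENCODE M21), Ccl22 at chr8:94745590-94751699 and Ccl17 at chr8:94810453-94812036, with a gap of 58.8 kb that holds 1 further coding gene, Cx3cl1. The bases before the start of each gene (RefSeq, GRCm38.p6, plus strand) are shown because both transcripts had their highest level in the same class of dendritic cells. RefSeq places the start of Ccl22 inside the gene as GENCODE draws it, so the printed stretch, taken from the 250 bases before the RefSeq start, ends where the GENCODE gene begins. Capitals mark the only match to GGGNNNNTCC, a loose form of the kappaB site, which was found in Ccl22 on the minus strand with its first printed base 131 bases before the RefSeq start.
Ccl17, chr8:94810203-94810452: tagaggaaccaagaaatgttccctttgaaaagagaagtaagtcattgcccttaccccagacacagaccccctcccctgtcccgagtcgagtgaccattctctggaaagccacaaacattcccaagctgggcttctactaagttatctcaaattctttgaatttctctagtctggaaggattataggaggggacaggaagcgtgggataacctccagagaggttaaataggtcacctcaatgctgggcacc
Ccl22, chr8:94745434-94745589: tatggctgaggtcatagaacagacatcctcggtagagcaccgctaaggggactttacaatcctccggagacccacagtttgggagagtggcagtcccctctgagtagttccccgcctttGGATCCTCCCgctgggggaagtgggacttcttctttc

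Both strands of the 250 bases before the RefSeq start were searched in 32851 promoters, and 16.5% of them held GGGNNNNTCC. Ccl22 was the only one of the 7 members with a listed promoter that held it. The stricter form GGGNNTTTCC, every match of which is also a match of the looser one, was in 1.41% of the promoters and in none of the 7. A match describes letters and is not a binding site, and Ccr7 has no listed promoter.

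The other members lie apart from each other in the genome, in GRCm38 coordinates: Xcl1 at chr1:164931644-164935527, Xcr1 at chr9:123852315-123862029, Ccr4 at chr9:114490316-114504916, Ccr7 at chr11:99144196-99155077 and Flt3 at chr5:147330741-147400489, all on the minus strand. The row labelled Flt3l carries an identifier that GENCODE names Gm45713, a read-through locus at chr7:45125922-45136231 on the minus strand that spans both Flt3l and the ribosomal protein gene Rpl13a on the same strand. Values of that row are therefore uncertain as a measure of Flt3l, and the level of Rpl13a is given beside them. Xcl1 and Flt3 each overlap 1 predicted gene on the opposite strand, and the sources used here do not say whether counting used strand.

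The libraries held 9846404, 15259236 and 9445914 UMIs (unique molecular identifiers, the tags by which captured transcripts are counted), and 4380, 6006 and 3838 barcodes with medians of 1239, 1549 and 1318 UMIs were kept, 14224 of 14336 in all. Barcodes were clustered without the 8 genes and without the gene lists used here, and clusters were named after the marker set they resembled. Each class name below means only that resemblance. Dendritic cells were divided into an Xcr1 class (71, 66 and 22 barcodes in libraries 1, 2 and 3), a Cd209a class (29, 54 and 22), an Fscn1 class with the markers of migratory dendritic cells (33, 42 and 11), and a further class led by Epcam and Plet1 (77, 115 and 32) in which none of the 3 dividing genes averaged above 24.3 CPM over the libraries. CPM is the number of UMIs of a gene for every 1000000 UMIs of that class in a library. Epcam and Plet1 were at 485 and 631 CPM in that class and also at 132 and 375 CPM in the Xcr1 class. The Epcam class held the antigen-presentation genes Cd74 and H2-Aa at 27777 and 9516 CPM and had Krt8 at 0 and Krt18 at 2.54 CPM, against 644 and 1380 CPM in a class of 271 barcodes with epithelial markers that passed the CD45 sort. Cd74 and H2-Aa are among the markers by which the Epcam class was named dendritic, so their levels are not independent of that name. Monocytes with macrophages (2848 barcodes), neutrophils (6186), T cells (3186), NK cells (505), plasmacytoid dendritic cells (210) and B or plasma cells (77) made up the other named classes, and 367 barcodes were left unnamed. Libraries 1 and 2 shared 29 barcode sequences, libraries 1 and 3 shared 25 and libraries 2 and 3 shared 37. Because clustering used other genes of the same cells, a test between classes sets the size of a difference against its spread over libraries and is not independent of the division.

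**Figure D1:**
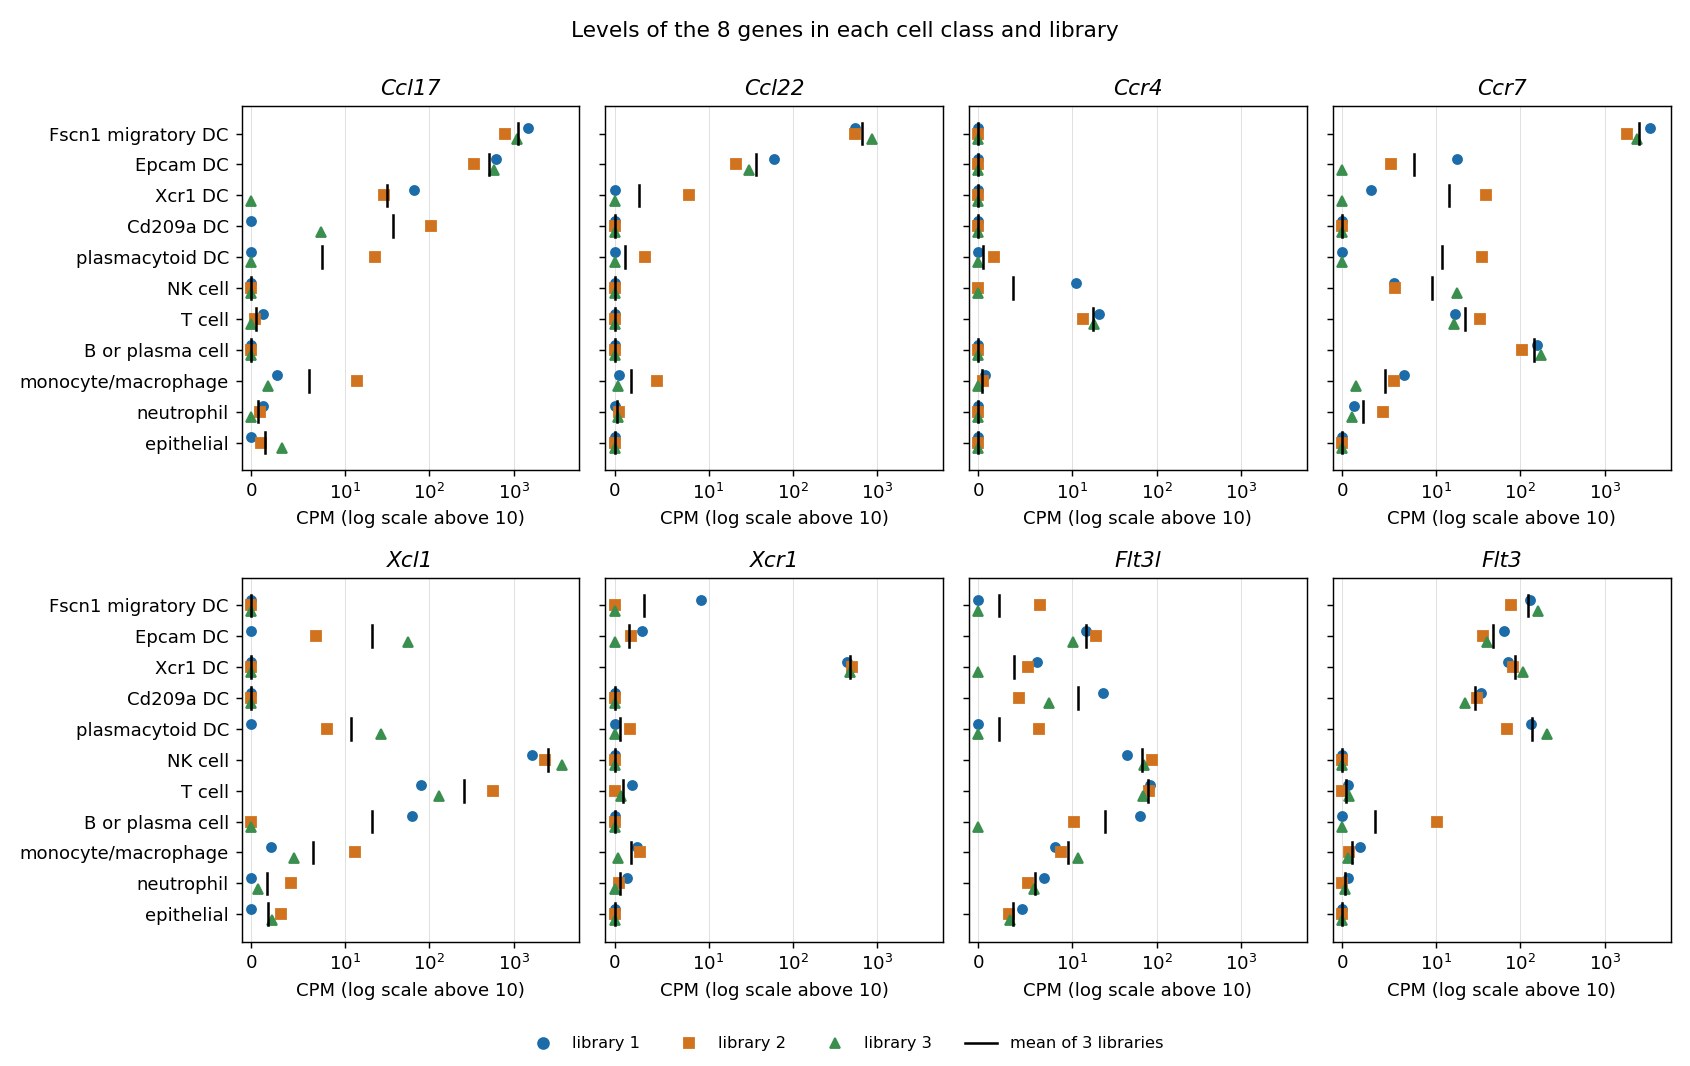
Level of each of the 8 genes (CPM, linear to 10 and logarithmic above) in 11 cell classes, 1 symbol per library and a bar at the mean of the 3 libraries. Ccr7, Ccl22 and Ccl17 were highest in the Fscn1 migratory class, Xcl1 in NK cells, Xcr1 in the Xcr1 class, Ccr4 and Flt3l in T cells, and Flt3 in the dendritic classes.

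Each gene's transcripts came mostly from few classes. The Fscn1 class, 0.605% of kept barcodes, held 69.3% of all Ccr7 UMIs (768 of 1108) and 66.0% of all Ccl22 UMIs (184 of 279). Ccl17 came 47.7% from the Epcam class and 30.7% from the Fscn1 class (519 and 334 of 1088 UMIs). Xcl1 came 53.1% from NK cells and 41.8% from T cells (2170 and 1706 of 4083 UMIs), and Ccr4, with only 102 UMIs in all, came 89.2% from T cells. The Flt3l row came 57.7% from T cells, and Flt3 was spread over plasmacytoid (26.7%), Xcr1 (25.6%), Epcam (18.4%) and Fscn1 (12.3%) dendritic cells.

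The first comparison set Fscn1 migratory dendritic cells against the mean of the Xcr1 and Cd209a classes, and the largest levels of Ccr7, Ccl22 and Ccl17 in the data were in the migratory class. Ccr7 had 3405, 1839 and 2439 CPM in the migratory class of libraries 1, 2 and 3, against 3.13, 39.5 and 0 CPM in the Xcr1 class and no UMI in the Cd209a class. All 3 migratory values lay far above every other dendritic value, and 14 of the 15 Xcr1-class UMIs in library 2 came from 1 barcode. The migratory mean was 2561 ± 790.3 CPM (SD, n = 3), 283-fold the mean of the Xcr1 and Cd209a classes summed and at least 383-fold that of the Cd209a class, taking 3 UMIs over the group as the floor. With the 2 lower classes summed, the log2 difference was 7.66 (edgeR adjusted p = 1.24e-23). B or plasma cells came next among the named classes with 145 ± 36.8 CPM, and their 3 values overlapped neither with the migratory class nor with T cells at 22.2 ± 9.46 CPM.

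Ccl22 had 537, 550 and 861 CPM in the migratory class, against 0, 7.91 and 0 CPM in the Xcr1 class and no UMI in the Cd209a class. The Xcr1 and Cd209a classes together held 3 Ccl22 UMIs, which gave a ratio of pooled levels of 258 with a 95% exact interval of 86.9 to 1263 that covers counting error only. The log2 difference with the 2 classes summed was 7.99 (edgeR adjusted p = 3.35e-14). Ccl17 had 1462, 798 and 1107 CPM in the migratory class, against 65.8, 29.0 and 0 CPM in the Xcr1 class and 0, 105 and 7.48 CPM in the Cd209a class. The groups did not overlap in any library, but 17 of the 24 Cd209a-class UMIs of library 2 came from 1 barcode. The difference in Ccl17 was 4.66 (log2, SE 0.38, edgeR adjusted p = 1.54e-12), higher in 3 of 3 libraries, and 6.60 without library 2.

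Of the 8 genes, 7 passed the filter on low counts in this comparison, and Ccr7, Ccl22, Ccl17 and Flt3 were called higher and none lower, where 10.1% of all 6778 genes tested were called higher and 11.2% lower. Xcl1 had no UMI and Xcr1 1 UMI in the migratory class, Flt3l had 1 UMI there, and Ccr4 had none in any of these 3 classes. The fitted values against the mean of the 2 classes, 10.69 for Ccr7 and 9.88 for Ccl22, rest on a class without UMIs and are no bound. Ccr7 and Ccl22 were also among the leading genes of the migratory class, so their calls are not independent of it. Of the 3 classes compared, only the migratory class held enough Ccl22 to pass the low-count filter, so the Ccl22 call is not independent of that filter either.

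**Figure D2:**
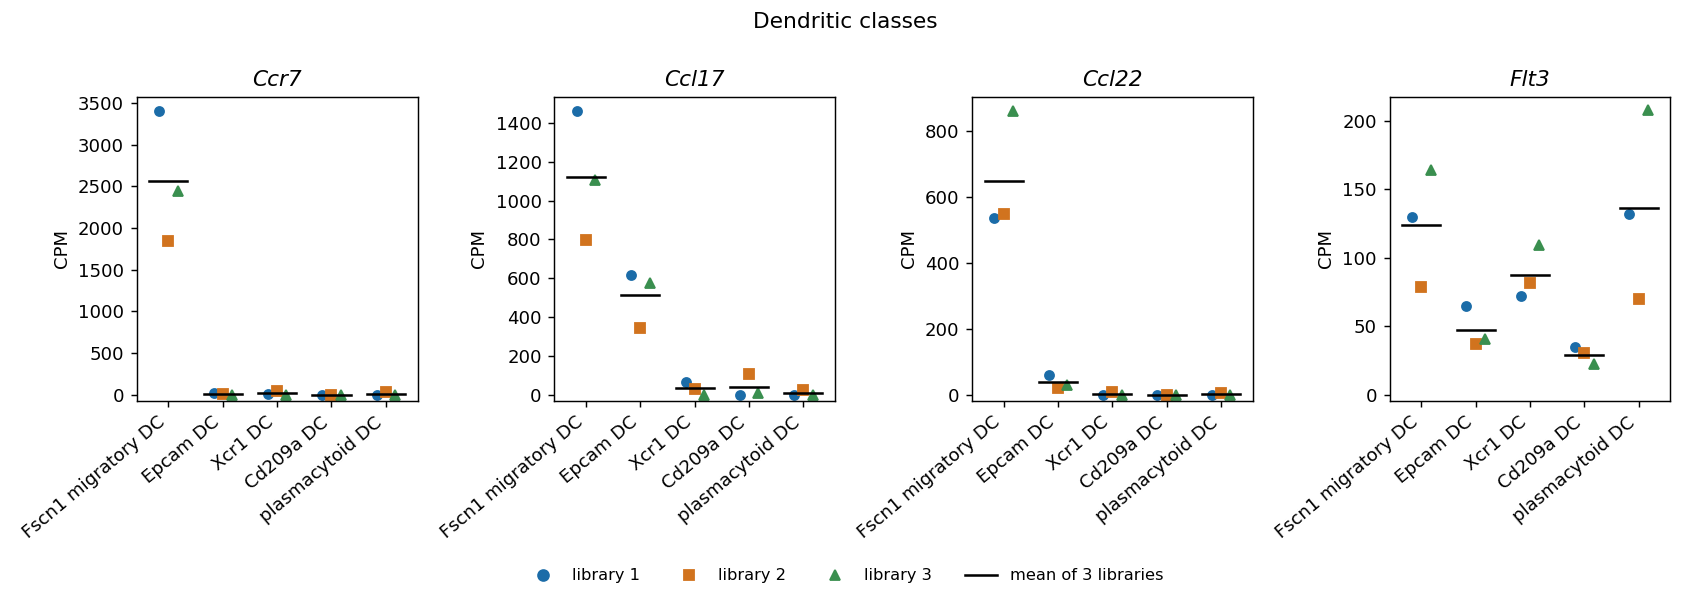
Ccr7, Ccl17, Ccl22 and Flt3 (CPM, linear axes from 0) in 5 dendritic classes, 1 symbol per library and a bar at the mean. Ccr7 and Ccl22 stood out in the Fscn1 class, Ccl17 was high in the Fscn1 and Epcam classes, and Flt3 overlapped between the plasmacytoid, Fscn1 and Xcr1 classes.

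Transcripts of Ccr7, Ccl17 and Ccl22 were often seen in the same migratory barcode. Of 86 barcodes, 35 held all 3, 12 held Ccr7 and Ccl17 only, 18 held Ccr7 and Ccl22 only, 14 held Ccr7 alone and 1 held none. Ccr7 was detected in 91.9% of the barcodes (95% exact interval 83.9 to 96.7%), Ccl22 in 67.4% (56.5 to 77.2%) and Ccl17 in 59.3% (48.2 to 69.8%), at a median of 3474 UMIs per barcode. In epithelial barcodes, which should lack them and had a median of 8755 UMIs, Ccr7 and Ccl22 were in 0 of 271 and Ccl17 in 1.11%. Thinned to 500 UMIs per barcode, the mean share over libraries was 62.8% for Ccr7 and 22.3% for both Ccl17 and Ccl22. The highest barcode held 7.07%, 11.4% and 22.7% of the migratory Ccr7 UMIs in libraries 1, 2 and 3, 16.5%, 28.7% and 55.6% of those of Ccl17, and 20.7%, 20.2% and 23.8% of those of Ccl22. Without its highest barcode Ccl17 was still at 1258, 583 and 573 CPM.

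**Figure D3:**
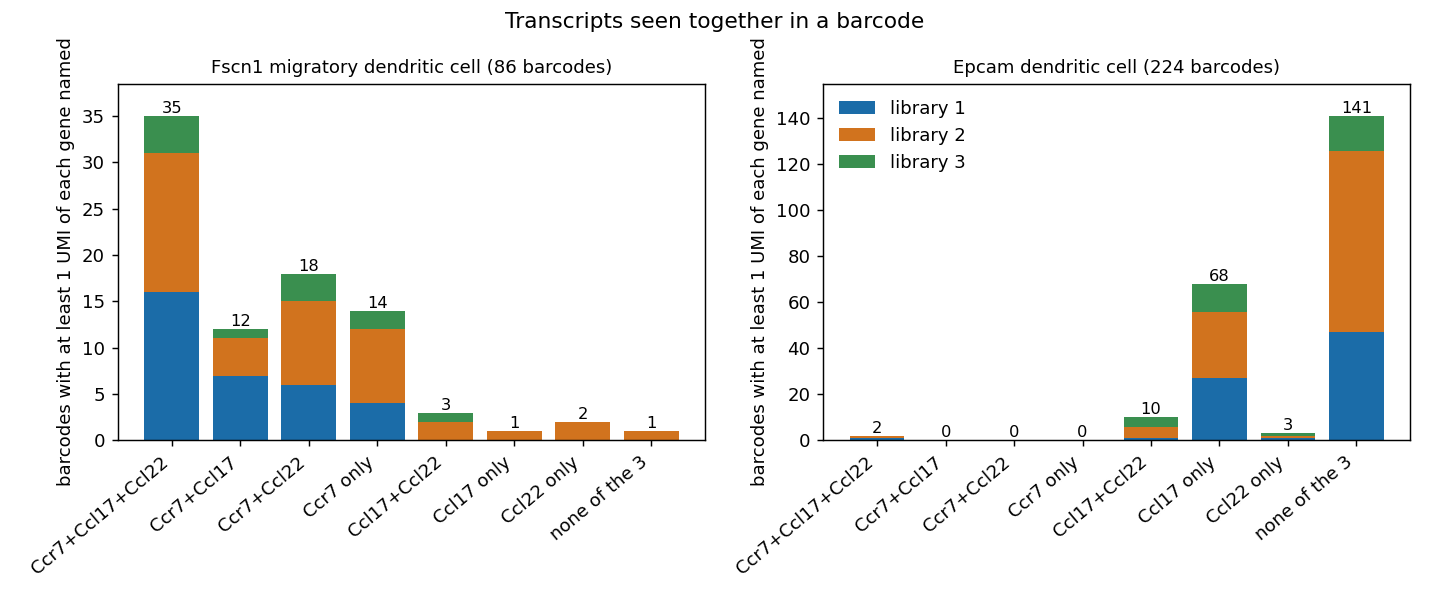
Number of barcodes with at least 1 UMI of each combination of Ccr7, Ccl17 and Ccl22 in the Fscn1 migratory class (86 barcodes) and the Epcam class (224 barcodes), stacked by library. The most frequent state was all 3 genes in the Fscn1 class (35 barcodes) and none of them in the Epcam class (141), followed there by Ccl17 alone (68).

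Most genes of a list of dendritic-cell maturation were higher in the same class. Of 20 tested genes of that list, 18 were higher in the migratory class and none lower, and their median log2 difference was 2.87 beside -0.20 over all genes tested. Samsn1, an adaptor protein of immune cells, was at 1192 ± 169 against 47.8 ± 13.9 CPM, Marcksl1 at 1431 ± 137 against 219 ± 58.2 CPM, and the inhibitor of apoptosis Birc2 at 248 ± 18.8 against 7.44 ± 1.91 CPM (SD, n = 3; edgeR adjusted p at most 7.22e-15). Cacnb3, Il4i1, Cd200 and Relb are also naming markers of the class, so these counts are not independent of its name. Among 15 tested transcription factors and FLT3 signalling genes, 5 were higher and 2 lower (median 0.60): Relb, an NF-kappaB subunit, was at 550.0 ± 105 against 28.8 ± 13.8 CPM, Stat3 at 229.8 ± 39.4 against 61.3 ± 15.3 CPM, Nfil3 at 109 ± 43.9 against 18.9 ± 9.86 CPM and Id2 at 2111 ± 558 against 912 ± 65.7 CPM. Of 8 tested genes of the other chemokine axes, 2 were higher and 2 lower (median -0.17). The chemokine Ccl5 was at 8041 ± 2552 against 27.1 ± 14.2 CPM (log2 8.28, SE 0.49, edgeR adjusted p = 1.52e-17) and Cxcl16 at 1130 ± 82.8 against 338 ± 17.1 CPM. The inflammatory receptor Ccr2 was lower at 9.63 ± 9.82 against 466 ± 101 CPM.

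The Epcam class held Ccl17 but almost no Ccr7, in a comparison added after the class had been seen. Ccl17 had 615, 342 and 577 CPM in the Epcam class, against 51.8, 57.6 and 3.45 CPM in the Xcr1 and Cd209a classes summed. The 3 Epcam values lay above every value of those classes and below every migratory value. The difference was 3.52 (log2, SE 0.37, edgeR adjusted p = 1.94e-08), where 4.98% of 8210 genes tested were called higher and 2.02% lower in the Epcam class, and the ratio of means was 13.6. Without library 2 the log2 difference was 5.44. Ccl22 had 58.9, 20.9 and 30.4 CPM in the Epcam class, against 0, 4.94 and 0 CPM in the summed classes, a ratio of pooled levels of 14.9 (95% exact interval 4.71 to 75.3 for 38 against 3 UMIs). Its log2 difference was 3.99 with the classes summed (edgeR adjusted p = 0.00545) and 5.93 against their mean (SE 1.28, adjusted p = 0.00275). The call for Ccl22 was lost without library 1 (edgeR adjusted p = 0.115) and under DESeq2 (adjusted p = 0.247). Of the classes compared, only the Epcam class held enough Ccl22 to pass the low-count filter, so the call is not independent of that filter.

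In the Epcam class 80 of 224 barcodes held Ccl17, 35.7% (29.4 to 42.4%), 15 held Ccl22 and 2 held Ccr7, at a median of 4686 UMIs. Ccr7 was at 17.7, 5.23 and 0 CPM there. The ratio of mean levels in migratory over Epcam dendritic cells was 2.19 for Ccl17, 17.7 for Ccl22 and 336 for Ccr7, a description with no test. Of the maturation list, 4 of 18 tested genes were higher in the Epcam class and none lower (median 0.79, beside 0.11 over all genes): Cxcl16, Cd86, Marcksl1 and the PD-1 ligand Pdcd1lg2, the last at 29.4 ± 2.59 against 10.7 ± 2.58 CPM. Among 15 tested transcription factors and FLT3 signalling genes, 2 were higher and 1 lower (median 0.31). Irf8 was lower at 106 ± 42.6 against 889 ± 47.0 CPM. Id2 was called higher against the mean of the 2 classes (log2 1.23), at 1025 ± 116 against a mean of 912 ± 65.7 CPM. It was higher in 2 of 3 libraries. Socs3 was called higher at 413 ± 37.3 against a mean of 326 ± 80.6 CPM. For both genes the Epcam mean lay between the means of the Xcr1 and Cd209a classes, so neither was above both. Of 8 genes of the chemokine axes, 3 were higher and 1 lower, with Ccr1 higher at 233 ± 40.6 against 54.7 ± 10.1 CPM and Ccr2 lower at 83.2 ± 49.96 against 466 ± 101 CPM. Of 15 activation genes 2 were higher and none lower, among them Ltb, which encodes lymphotoxin beta, at 657 ± 17.0 against 139 ± 50.6 CPM.

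Flt3 was found in all 5 dendritic classes, at 11.2 ± 5.001 CPM in the unnamed barcodes, and at no more than 3.47 CPM on average in any other class. It had 132, 69.5 and 208 CPM in plasmacytoid dendritic cells, 130, 78.5 and 164 CPM in the migratory class, 72.1, 81.7 and 109 CPM in the Xcr1 class, 64.8, 36.6 and 40.5 CPM in the Epcam class, and 34.7, 30.7 and 22.4 CPM in the Cd209a class. The first 3 of these overlapped, while the Xcr1, Epcam and Cd209a classes did not overlap with their neighbours in that order. Monocytes with macrophages had 1.88, 0.787 and 0.612 CPM, and NK and epithelial cells had no UMI, where 3 UMIs would be 3.41 and 1.12 CPM. The 3 conventional classes were 5.75 higher than monocytes with macrophages (log2, SE 0.41, edgeR adjusted p = 2.05e-14, 3 of 3 libraries), where 8.70% of 6778 genes were called higher and 25% lower, and the ratio with the classes summed was 69.1. Ccl17 was called higher in the same comparison (log2 4.08, SE 0.51, edgeR adjusted p = 2.29e-08), and 51 of the 89 Ccl17 UMIs of monocytes with macrophages in library 2 came from 1 barcode. Of the other dendritic regulators on the list of transcription factors, Zbtb46, a defining factor of conventional dendritic cells, was at 23.9 ± 6.80 against 0.42 ± 0.10 CPM, Batf3 at 240.1 ± 56.6 against 55.4 ± 18.3 CPM and Cbfa2t3 at 191 ± 18.4 against 21.3 ± 4.43 CPM, all higher, and Klf4 was lower at 64.4 ± 12.0 against 128 ± 33.4 CPM. In all 7 of 15 tested genes of that list were higher and 1 was lower, with a median of 0.94 beside -0.29 over all genes. Zbtb46 and Cbfa2t3 are also naming markers of conventional dendritic cells, and Relb of the Fscn1 class, so the count is not independent of the names.

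Within the dendritic cells the calls for Flt3 depended on single libraries. The Xcr1 class was above the Cd209a class in each library (means 87.6 ± 19.2 and 29.2 ± 6.24 CPM, ratio 2.99; log2 1.68, SE 0.45, edgeR adjusted p = 0.0117), where 5.43% of 8210 genes were called higher and 4.07% lower. Apart from Xcr1, which made the division, no other member was called in that comparison. The call was lost without library 2 (edgeR adjusted p = 0.103) and without library 3 (0.131), and the Cd209a class held 13 Flt3 UMIs in all. The migratory class was above the mean of the Xcr1 and Cd209a classes by 1.26 (SE 0.38, edgeR adjusted p = 0.0125), and above the 2 classes summed by 0.76 with an adjusted p of 0.126. That call was also lost without library 1 (edgeR adjusted p = 0.161) and without library 3 (0.0954). Plasmacytoid dendritic cells were at 137 ± 69.4 CPM against 75.4 ± 8.75 CPM in the 3 conventional classes summed, a log2 difference of 0.65 from their mean (SE 0.29, edgeR adjusted p = 0.107) that passed the threshold when library totals replaced TMM scaling (0.82, adjusted p = 0.0346). Ccl17 was lower in plasmacytoid than in conventional dendritic cells (log2 -2.96, SE 0.71, edgeR adjusted p = 0.00167), where 15.3% of 6778 genes were called higher and 7.76% lower, but not past the threshold without library 2 (adjusted p = 0.0715), which held all 14 plasmacytoid Ccl17 UMIs, nor at clustering resolution 0.5 (0.0819). Of 15 tested transcription factors and FLT3 signalling genes, 2 were higher in plasmacytoid cells and 6 lower (median -0.38, beside 0.16 over all genes). Tcf4, the defining factor of plasmacytoid cells, was at 829.8 ± 204 against 76.7 ± 36.5 CPM, and Batf3 (16.2 ± 28.0 against 240.1 ± 56.6 CPM) and Id2 (71.9 ± 59.2 against 1312 ± 171 CPM) were lower. Tcf4 is also a naming marker of the plasmacytoid class, and Zbtb46, Cbfa2t3 and Relb are naming markers of conventional classes. These counts are therefore not independent of the names.

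The same list set the Xcr1 class apart from the Cd209a class, with 4 of 15 tested genes higher and 3 lower (median 0.03, beside 0.04 over all genes). Irf8 was at 1576 ± 68.8 against 202 ± 159.9 CPM and Id2 at 1681 ± 218 against 144 ± 95.5 CPM, and both are known to be needed by cross-presenting dendritic cells. Klf4, needed by part of the other conventional branch, was lower at 35.9 ± 6.95 against 151 ± 32.5 CPM, as was the cytokine-signalling inhibitor Socs3 at 143 ± 35.3 against 508 ± 155 CPM.

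Xcr1 was used to divide the dendritic cells, so its level is only described. It had 436, 503 and 475 CPM in the Xcr1 class, in which 103 of 159 barcodes held it, and 85.1% of its 475 UMIs came from that class. Every other named class averaged at most 3.08 CPM, and the unnamed barcodes averaged 20.9 CPM. Of the 57 Xcr1-class barcodes with Flt3, 40 also held Xcr1. The ligand Xcl1 had no UMI in the Xcr1, Cd209a and migratory classes, where 3 UMIs over the libraries would be 3.51, 6.69 and 9.69 CPM.

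Xcl1 was highest in NK cells and, among T cells, in 1 cluster. NK cells had 1640, 2358 and 3679 CPM in libraries 1, 2 and 3, against 80.2, 571 and 131 CPM in T cells. NK cells were higher in each library, by 9.81-fold in the means and by 3.63 on the log2 scale (SE 0.33, edgeR adjusted p = 2.59e-10; 4.59 without library 2), where 4.17% of 8210 genes were called higher and 5.04% lower. Xcl1 was among the leading genes of the NK class, so its call is not independent of that class. In NK cells 322 of 505 barcodes held Xcl1 (63.8%, 59.4 to 68.0%) at a median of 1528 UMIs, against 207 of 3186 T-cell barcodes (6.50%, 5.67 to 7.41%) at a median of 1417 UMIs. Epithelial barcodes, which should lack it, held it in 1.85% at a median of 8755 UMIs. Thinned to 500 UMIs the mean shares were 43.2% of NK and 2.82% of T-cell barcodes. Of 15 tested activation genes, 1 was higher in NK cells, Gzmb at 445 ± 176 against 268 ± 27.1 CPM, and 3 were lower, among them Lta at 9.59 ± 8.70 against 36.3 ± 4.23 CPM and Tnf at 15.3 ± 3.60 against 51.9 ± 10.2 CPM, with a median of 0.07 beside -0.03 over all genes. Of the homing list, 1 of 13 tested genes was higher and 7 lower in NK cells, among the lower ones Cxcr6 at 73.8 ± 16.7 against 524 ± 98.5 CPM.

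Among T cells, 1503 of the 1706 Xcl1 UMIs lay in a cluster of 275 barcodes led by Ccl1, Xcl1 itself and Nrn1, with Cd8a at 596 ± 241 CPM and the cycling gene Mki67 at 142 ± 45.1 CPM. Xcl1 had 483, 2030 and 1141 CPM in this Nrn1 cluster, against 76.4, 108 and 63.8 CPM in the larger Cd8a-expressing cluster led by Ccl5 and Gzmk. The groups did not overlap. Xcl1 was left out of the clustering but was among the leading genes of the cluster, so this difference is given as a description with no p. Single barcodes weighed heavily: in library 3, 98 of the 155 UMIs came from 1 barcode, and without the highest barcode of each library the levels were 373, 1828 and 432 CPM. The Tnfrsf4 and Il17a clusters averaged 19.8 ± 22.1 and 2.62 CPM. The Nrn1 cluster had a median of 2861 UMIs per barcode against 1217 in the Gzmk cluster, and the part of depth or of cycling in the difference was not tested.

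The Nrn1 and Gzmk clusters were compared after the clusters had been seen, and 10.9% of 5307 genes were called higher and 11.4% lower in the Nrn1 cluster. Of the activation list, 3 of 13 tested genes were higher and 3 lower (median 0.27, beside -0.03 over all genes). The co-stimulatory receptor Tnfrsf9 was higher at 164 ± 94.9 against 15.7 ± 8.56 CPM (edgeR adjusted p = 2.25e-12), and the chemokine Ccl3 was called higher at 613 ± 466 against 206 ± 56.6 CPM although only 2 of 3 libraries showed it. Gzmb was lower at 223 ± 71.9 against 607 ± 111 CPM and Ltb at 995 ± 152 against 1389 ± 162 CPM. Of 7 genes of the chemokine axes 2 were higher and 4 lower, among them Ccl5 at 5413 ± 2395 against 25742 ± 1211 CPM. Of the homing list 3 of 13 were higher and 6 lower, among them the exit receptor S1pr1 at 10.9 ± 9.66 against 48.6 ± 20.6 CPM.

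**Figure D4:**
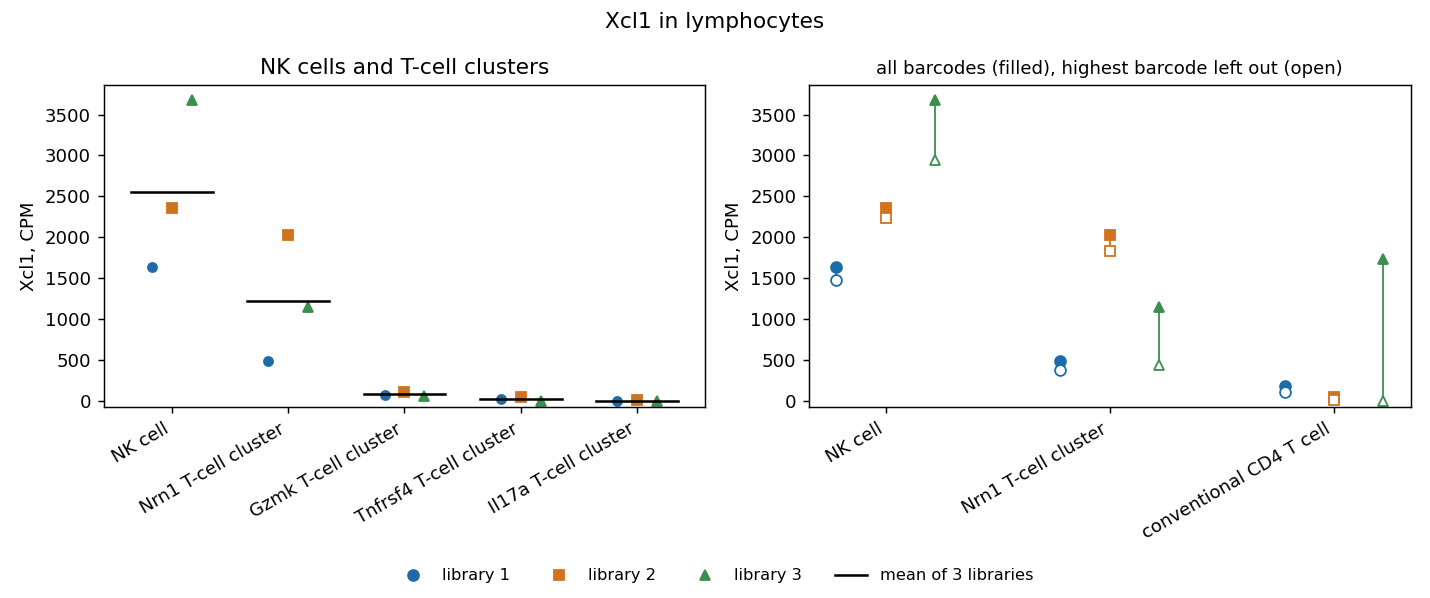
Xcl1 (CPM, linear axes from 0) in NK cells and 4 T-cell clusters, 1 symbol per library with a bar at the mean, and in NK cells, the Nrn1 cluster and conventional CD4 T cells with all barcodes (filled) and without the highest barcode of the library (open). Without the highest barcode NK cells were at 1481, 2234 and 2945 CPM and the Nrn1 cluster at 373, 1828 and 432 CPM, and the CD4 value of library 3 was 0.

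The sign of the Xcl1 difference between CD8 and conventional CD4 T cells turned on 1 barcode. CD8 T cells had 170.5, 1075 and 162 CPM, against 178, 49.8 and 1730.2 CPM in CD4 T cells, and all 98 CD4 UMIs of library 3 came from 1 barcode, which lies in the Nrn1 cluster. The log2 difference was -0.05 (SE 0.62, edgeR adjusted p = 0.996), where 2.15% of 4755 genes were called higher and 1.54% lower in CD8 T cells. Without that barcode it was 3.43 (edgeR adjusted p = 6.92e-07), without library 3 it was 3.26 (0.00031), and without library 2 it was -2.22 (8.28e-12). Within CD8 T cells, Xcl1 averaged 93.6 ± 60.9 CPM in barcodes with Gzmb, 209 ± 118 CPM in those with Gzmk and no Gzmb, and 731 ± 843 CPM in those with neither, groups set by detection and therefore by depth as well.

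Ccr4 was low throughout and was a T-cell transcript. T cells had 20.8, 13.5 and 17.9 CPM, with 80 of 3186 barcodes positive (2.51%, 1.996 to 3.12%), against none of 6186 neutrophils and 5 of 2848 monocytes with macrophages. The count of 0 allows a share of neutrophil barcodes with a UMI of up to 0.06% (95% exact limit), at a median of 902 UMIs, and sets no limit on the share of neutrophils that express the gene. No Ccr4 UMI was found in the Xcr1, Cd209a, Epcam or Fscn1 classes. Its ligands Ccl17 and Ccl22 averaged highest in the Fscn1 class and next in the Epcam class. The Tnfrsf4 cluster, which had the highest Cd4 and Foxp3 levels of the 4 clusters (119.5 ± 45.6 and 41.9 ± 23.2 CPM), had 55.2, 49.95 and 32.7 CPM, against 14.3, 4.59 and 15.7 CPM in the other 3 T-cell clusters summed. It was higher in each library, by 3.11 against the mean of the other clusters (log2, SE 0.43, edgeR adjusted p = 7.53e-07), where 4.88% of 5307 genes were called higher and 2.39% lower. The Il17a cluster, whose barcodes carried Trdc at 1165 ± 67.6 CPM, came next with 30.5, 10.5 and 28.3 CPM, below the Tnfrsf4 cluster in all 3 libraries. The Gzmk and Nrn1 clusters had 5 and 2 UMIs in all. Between subsets set by Cd4 and Cd8 transcripts, CD8 T cells were at 3.89 ± 1.95 CPM against 38.0 ± 13.9 CPM in conventional CD4 T cells (log2 -3.10, SE 0.80, edgeR adjusted p = 0.0165), from 8 and 9 UMIs, and the call was lost without library 2 (adjusted p = 0.245). Only 6, 25 and 7 barcodes held Foxp3, with 3 Ccr4 UMIs between them, too few for a test of regulatory T cells.

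Ccr7 was low in T cells and, like Ccr4, highest on average in the Tnfrsf4 cluster, but the Il17a cluster, second for Ccr4, had the lowest mean of Ccr7 at 6.01 ± 5.33 CPM. The Tnfrsf4 cluster had 55.2, 83.3 and 27.2 CPM, against 9.78, 20.9 and 14.9 CPM in the other T-cell clusters summed, higher in each library (log2 2.04 against their mean, SE 0.36, edgeR adjusted p = 6.35e-05), and the call was lost without library 2 (0.113). CD8 T cells were at 18.3 ± 7.64 CPM against 69.0 ± 45.6 CPM in conventional CD4 T cells (log2 -1.92, SE 0.50, edgeR adjusted p = 0.0195), and this call was lost without library 2 (0.730), without library 3 (0.0542) and under DESeq2 (0.109). Of the homing and regulatory list, 12 of 13 tested genes were higher in the Tnfrsf4 cluster and 1 lower (median 1.52, beside 0.01 over all genes). Beside Tnfrsf4 itself, which names the cluster, these included Tnfrsf18 at 566 ± 113 against 111 ± 5.97 CPM, the inhibitory receptor Ctla4 at 175 ± 36.0 against 56.6 ± 7.54 CPM and S1pr1 at 177 ± 24.2 against 54.4 ± 7.50 CPM, while Cxcr6 was lower at 275 ± 26.4 against 539.5 ± 64.6 CPM. Tnfrsf18, Ctla4 and Ikzf2 of this list were, like Tnfrsf4, among the leading genes of the cluster, so the count is not independent of it. Of 7 genes of the chemokine axes none was higher and 4 were lower, among them Ccl4 and Ccl5, at 117 ± 3.64 against 764 ± 76.2 CPM and at 1048 ± 332 against 10501 ± 980 CPM.

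**Figure D5:**
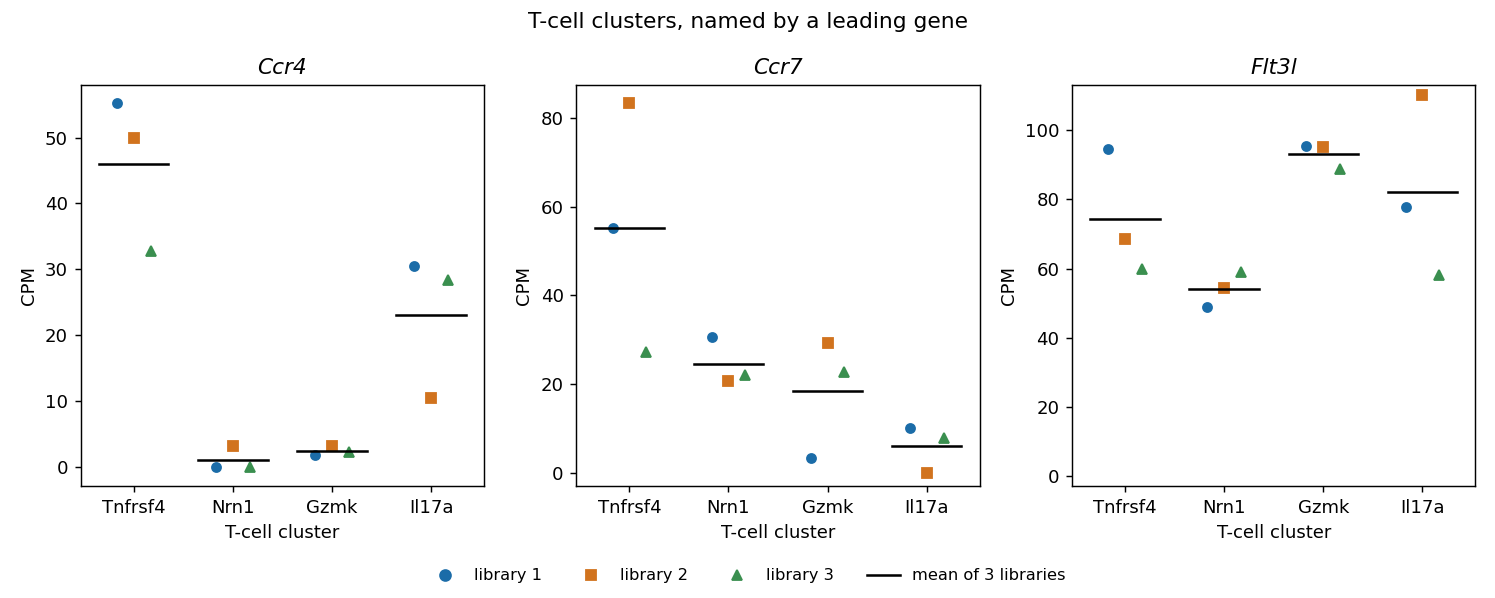
Ccr4, Ccr7 and the Flt3l row (CPM, linear axes from 0) in 4 T-cell clusters named by a leading gene, 1 symbol per library and a bar at the mean. Ccr4 was highest in the Tnfrsf4 cluster and next in the Il17a cluster, Ccr7 was highest on average in the Tnfrsf4 cluster with overlap between libraries, and Flt3l lay between 48.9 and 110.1 CPM in every cluster.

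The Flt3l row was higher in lymphocytes than in phagocytes. T cells had 84.0, 81.9 and 68.2 CPM and NK cells 44.5, 88.6 and 70.8 CPM, against 8.21, 8.81 and 11.6 CPM in monocytes with macrophages and 7.02, 5.27 and 5.89 CPM in neutrophils. The lymphocyte and phagocyte values did not overlap, and the log2 difference of the means was 3.23 (SE 0.18, edgeR adjusted p = 7.43e-18), where 27.8% of 8210 genes were called higher and 31.6% lower. Rpl13a, which shares the locus, was at 8604 ± 255 CPM in T cells and 7231 ± 256 CPM in NK cells, against 2770.2 ± 202 CPM in monocytes with macrophages and 994 ± 56.0 CPM in neutrophils, so both rows moved the same way and the part of Rpl13a reads in the Flt3l row was not tested. The difference between NK and T cells did not pass the threshold (log2 -0.12, SE 0.23, edgeR adjusted p = 0.867) and was 0.062 without library 1. Xcl1 (log2 7.82, SE 0.33, edgeR adjusted p = 3.38e-20) was also called higher in lymphocytes than in phagocytes, in 3 of 3 libraries. So was Ccr7 (log2 1.82, SE 0.58, edgeR adjusted p = 0.00698), though not past the threshold without library 3 (0.0741). The call for Xcl1, a leading gene of the NK class, is not independent of that class.

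Among the dendritic classes the Flt3l row averaged between 2.16 and 14.7 CPM, highest in the Epcam class (14.7, 19.2 and 10.1 CPM), and plasmacytoid cells had 4 Flt3l UMIs. Of the T-cell clusters, the Nrn1 cluster had 48.9, 54.4 and 58.9 CPM, against 95.5, 95.2 and 88.9 CPM in the Gzmk cluster, lower in each library (log2 -1.02, SE 0.24, edgeR adjusted p = 0.00147), and the call was lost without library 2 (0.0614). Rpl13a was lower in the same direction, 6474 ± 382 against 10430 ± 612 CPM. The row was detected in 12.2% of T-cell barcodes (11.1 to 13.4%) and in 2.95% of epithelial barcodes, and thinned to 500 UMIs in 4.43% of T-cell barcodes on average.

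Over 33 points, 11 classes by 3 libraries, the genes whose log2 level was most like that of each member were taken as a description, with no p, since the points share libraries and depth. Ccr7 was closest to Il4i1 (r = 0.896), Birc2 and Tmem123, and Ccl22 to Nostrin (0.920), Eno3 and Nr4a3. Ccl17 was closest to Tm4sf5 (0.880), a leading gene of the Epcam class, then to Ccl22 (0.875) and Nostrin. Xcl1 was closest to Cd160 (0.957), Nrgn and Gzma, Xcr1 to Tlr3 (0.899), Cd36 and Asb2, and Ccr4 to the gamma-delta T-cell receptor genes Trgv2 (0.971) and Tcrg-C2 with Xlr4a. All T cells formed the same class here, so the likeness of Ccr4 cannot tell T-cell clusters apart. Among those clusters Ccr4 was highest in the Tnfrsf4 cluster, above the Il17a cluster that carried Trdc. Flt3 was closest to Slc46a3 (0.899), Pkib and Cbfa2t3, and the Flt3l row to Lax1 (0.912), Lef1 and Ms4a4b. Il4i1, Tmem123, Tlr3, Gzma and Cbfa2t3 are naming markers of the classes, so their likeness is not independent of the names.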

How the data were processed

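CD45+ cells of 2208L tumours were profiled by droplet RNA sequencing in 3 libraries. The authors deposited UMI counts, 1 matrix a library. Cell Ranger, Seurat and mm10 are named, without versions, per the submitters' processing notes, and per the file headers the matrices came from software of version 3.0.0. Every deposited barcode had at least 500 UMIs. A barcode was dropped where it had fewer than 200 genes (22) or a mitochondrial share above 10% (107). Scrublet marked 2 barcodes, 0.0141%, which were dropped, so the caller did not work and other doublets were not removed singly. A cluster of 136 barcodes with a median doublet score of 0.223 was left unnamed. So were subclusters led by neutrophil or T-cell markers among the dendritic and monocyte barcodes. An alternative left out the 560 highest doublet scores.

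Counts were scaled to 10000 per barcode, and 1965 variable genes (2000 less the 8 members and the listed genes) gave 30 principal components, 15 neighbours and Leiden clusters at resolution 1 (scanpy 1.11.5, igraph 0.11.9, Python 3.11.15). A cluster was named where at least 3 markers were in 10% of its barcodes and raised 2-fold with 10 CPM added. UMIs were summed per class and library and tested with edgeR 4.0.16 in R 4.3.3 (quasi-likelihood, TMM, filterByExpr, library as a block because both sums come from 1 library), with Benjamini-Hochberg adjustment over all genes and a threshold of 0.05. The low-count filter keeps a gene with enough counts in 1 class alone, so a call on a gene that is low elsewhere is not independent of that class. Standard errors are the log2 difference over the square root of F. DESeq2 1.42.0, library totals, no low-count filter, no block, leaving out each library, stricter barcode filters and other divisions were tried. On simulated counts for the migratory comparison (5694 genes), 43.6% of genes changed by log2 2 and 9.5% of those changed by log2 1 were recovered, and 0.09% of unchanged genes were called. Recovery at log2 1 was 0% for Xcr1 against Cd209a cells, 2.2% for CD8 against CD4 T cells and 41.8% for lymphocytes against phagocytes. The simulation gave all classes the same profile, a fixed dispersion and no library effect, unlike the data. Shares carry exact (Clopper-Pearson) 95% intervals, which cover counting error only, and shares were thinned to 500 UMIs.

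The members and lists were chosen with earlier results of these data known. The genes named from each list were up to 4 called genes with the smallest adjusted p, and the members called are named in each comparison. Some genes of the lists are counted but not reported here by name. After the data were seen, dendritic and monocyte clusters were divided together, since dividing dendritic clusters alone left 12 barcodes with Cd209a. Classes of at least 10 barcodes per library, in place of 20, entered 3 comparisons, and the Epcam, Tnfrsf4 and Nrn1 comparisons were added. Likeness used genes with at least 200 UMIs and log2 of CPM with 10 added.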

Additional observations from a re-analysis of the deposited data

How the results depend on the processing

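Of 155 alternative values for the 13 main differences, 143 kept their direction and their side of the threshold. The 13 include the difference in Xcl1 between the Nrn1 and Gzmk clusters, which is only described above. The difference in Flt3 between migratory and other conventional dendritic cells (1.26) lost its call at 1.00 when barcodes were divided singly (edgeR adjusted p = 0.0846) and at 0.76 with the other classes summed (0.126), and spanned 1.09 to 1.64 when a library was left out. That of Flt3 between Xcr1 and Cd209a cells spanned 1.395 to 1.94 without a library. Flt3 in plasmacytoid cells (0.65) passed the threshold at 0.82 with library totals and at 0.80 without the highest doublet scores, and spanned 0.25 to 1.16 without a library. Xcl1 between CD8 and CD4 T cells (-0.05) was 0.17 without the low-count filter and 3.43 without 1 CD4 barcode, and spanned -2.22 to 3.26 without a library; Flt3l between NK and T cells (-0.12) was 0.062 without library 1 and -0.434 without library 2. The causes were not tested, other than the barcode named. With library totals the median of all genes was 0.31 for plasmacytoid cells, against 0.16 with TMM.

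Without the replicate block no call on a member changed, and Xcl1 in NK against T cells was 3.21 in place of 3.63; the pairing comes from both sums being of 1 library. Genes called between CD8 and CD4 T cells numbered 175, against 293 without the filter, 92 under DESeq2 and 92 without library 3. Under DESeq2 the Tnfrsf4 and Nrn1 comparisons gave 238 and 660 calls in place of 386 and 1185. Without library 2, the deepest, calls numbered 880 in place of 1440 (migratory), 488 in place of 780 (Xcr1), 1456 in place of 2283 (conventional), 845 in place of 1561 (plasmacytoid), 440 in place of 756 (NK), 244 in place of 386 (Tnfrsf4) and 686 in place of 1185 (Nrn1), numbers only, and the Epcam comparison had 272 to 371 in place of 575. CD8 against CD4 under the strict filter, Xcr1 against Cd209a per barcode, and both Xcr1 and Epcam comparisons at resolution 0.5 were not run, since a class had too few barcodes.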
